A study of Homo sapiens with 12 samples.

Results

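The genes described here are 52 interferon-stimulated genes, chosen as a fixed list of gene symbols and found by symbol among 78892 genes counted in OCI-Ly7 cells. OCI-Ly7 is an established line grown from a human diffuse large B-cell lymphoma. The cells received vehicle, an HDAC3 inhibitor, 5-azacitidine or both drugs, with 3 RNA-seq libraries per group. 5-azacitidine, a cytidine analogue that traps DNA methyltransferases, was added daily at 100 nM from day 0 to day 4. The inhibitor of the histone deacetylase HDAC3, whose compound name is not given in the sources used here, was added at 15 µM on day 2 and day 4, and the cells were taken on day 5. All groups are 1 cell line without any further genetic change named in the labels. Whether the 3 replicates in each group were grown separately is not given in the labels, so a p-value covers only how far these libraries spread, and that spread may be technical.

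Interferons are secreted when a cell senses foreign nucleic acid. Type I interferons bind the receptor pair IFNAR1 and IFNAR2, the kinases JAK1 and TYK2 then phosphorylate STAT proteins, and STAT2 joins IRF9 in a complex that binds the interferon-stimulated response element in front of target genes. The products of those genes block virus entry, translation and replication, and many are also expressed at some level in B cells without added interferon.

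Promoter sequence was available from RefSeq (GRCh38.p14) for 43 of the 52 genes, as windows of 250 bases before to 50 bases after the transcription start. Only 1 window per gene symbol was used, so any other start of a gene was not searched. The core of the response element was searched on both strands as the letters GAAA, then any 2 bases, then GAAA; overlapping matches were all counted. It was present in 28 of the 43 windows, 65.1%, and in 3.65% of 27305 windows of the same length for all genes in the table. Of these 28 windows 14 held it at least 2 times. The element bound by STAT dimers, searched as TTCNNNGAA, which reads the same on both strands, was in 8 of the 43 windows (18.6%) and in 7.88% of all windows. The median number of CG pairs was 8 in the members' windows and 14 in all windows. A match describes letters in the window and is not evidence of binding. Because the response element helped to define this class of genes, its frequency is background to the expression results.

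The 250 bases before the start are given for the 6 genes with a match that had the largest change with both drugs, 5′ to 3′ on the gene's strand, with matches in capitals (a run in capitals that begins with TTTC is a match on the other strand). They show the element and its surroundings in genes with few or no counts in vehicle.
GBP1: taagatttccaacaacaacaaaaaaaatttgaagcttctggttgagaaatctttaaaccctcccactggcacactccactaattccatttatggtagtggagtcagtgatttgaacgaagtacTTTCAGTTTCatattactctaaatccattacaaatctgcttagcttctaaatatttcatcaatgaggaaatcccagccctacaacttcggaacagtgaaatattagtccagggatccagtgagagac
IFI44: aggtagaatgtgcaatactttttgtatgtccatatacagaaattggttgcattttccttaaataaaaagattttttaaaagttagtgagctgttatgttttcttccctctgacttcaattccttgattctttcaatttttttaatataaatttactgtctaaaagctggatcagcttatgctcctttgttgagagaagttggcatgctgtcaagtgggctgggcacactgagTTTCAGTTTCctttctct
EPSTI1: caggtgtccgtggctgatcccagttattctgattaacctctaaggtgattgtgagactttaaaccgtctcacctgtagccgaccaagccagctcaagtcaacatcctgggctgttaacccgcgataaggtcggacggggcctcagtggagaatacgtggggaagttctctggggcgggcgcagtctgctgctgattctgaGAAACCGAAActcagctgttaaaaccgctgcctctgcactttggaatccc
LGALS3BP: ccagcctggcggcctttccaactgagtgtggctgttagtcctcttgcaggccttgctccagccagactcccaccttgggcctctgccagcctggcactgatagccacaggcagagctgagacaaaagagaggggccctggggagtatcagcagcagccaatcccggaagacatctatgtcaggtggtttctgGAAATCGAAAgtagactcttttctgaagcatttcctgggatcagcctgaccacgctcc
HERC5: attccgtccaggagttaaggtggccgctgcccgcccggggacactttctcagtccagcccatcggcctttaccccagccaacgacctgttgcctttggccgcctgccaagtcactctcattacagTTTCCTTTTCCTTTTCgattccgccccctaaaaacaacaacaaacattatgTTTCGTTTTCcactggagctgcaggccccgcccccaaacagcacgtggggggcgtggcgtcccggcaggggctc
IFIT1: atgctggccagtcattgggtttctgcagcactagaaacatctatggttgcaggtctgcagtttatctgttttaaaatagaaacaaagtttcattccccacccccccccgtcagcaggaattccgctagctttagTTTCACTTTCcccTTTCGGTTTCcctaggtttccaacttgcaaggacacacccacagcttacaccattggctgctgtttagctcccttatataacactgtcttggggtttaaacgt

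The windows lie at chr1:89065209-89065458 for GBP1 (minus strand), chr1:78649539-78649788 for IFI44 (plus), chr13:42992242-42992491 for EPSTI1 (minus), chr17:78979924-78980173 for LGALS3BP (minus), chr4:88456869-88457118 for HERC5 (plus) and chr10:89392373-89392622 for IFIT1 (plus). GBP1, IFI44, EPSTI1 and LGALS3BP each held 1 match, IFIT1 held 2 and HERC5 held 3, of which 2 overlap. RSAD2 and XAF1 were the called genes of largest change whose windows (chr2:6865635-6865884 and chr17:6755796-6756045, both plus strand) held no match of these letters and spacing. The RSAD2 window lies inside the annotated span of CMPK2 on the other strand (6840570 to 6866635). Any other RSAD2 start was not searched, so the absence of a match holds for that window only. ISG15, which fell, held 2 overlapping matches (chr1:1013247-1013496, plus strand); it was added to the sequences after its values were seen, to set a gene that fell beside genes that rose.
RSAD2: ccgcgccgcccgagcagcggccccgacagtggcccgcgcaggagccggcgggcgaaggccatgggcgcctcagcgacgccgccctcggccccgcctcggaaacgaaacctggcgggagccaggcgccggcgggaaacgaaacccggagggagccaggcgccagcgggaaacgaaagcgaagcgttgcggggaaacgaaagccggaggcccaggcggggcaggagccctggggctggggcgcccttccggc
XAF1: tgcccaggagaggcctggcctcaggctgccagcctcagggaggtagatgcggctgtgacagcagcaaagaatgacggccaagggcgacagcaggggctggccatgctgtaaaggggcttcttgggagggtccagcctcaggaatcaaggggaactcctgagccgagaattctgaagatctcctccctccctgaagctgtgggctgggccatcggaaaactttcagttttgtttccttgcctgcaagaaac
ISG15: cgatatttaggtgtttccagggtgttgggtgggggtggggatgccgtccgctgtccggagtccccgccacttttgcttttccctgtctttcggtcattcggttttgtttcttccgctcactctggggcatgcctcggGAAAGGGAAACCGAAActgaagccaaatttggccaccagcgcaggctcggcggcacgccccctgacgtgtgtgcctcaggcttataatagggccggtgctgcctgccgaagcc

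**Figure D1:**
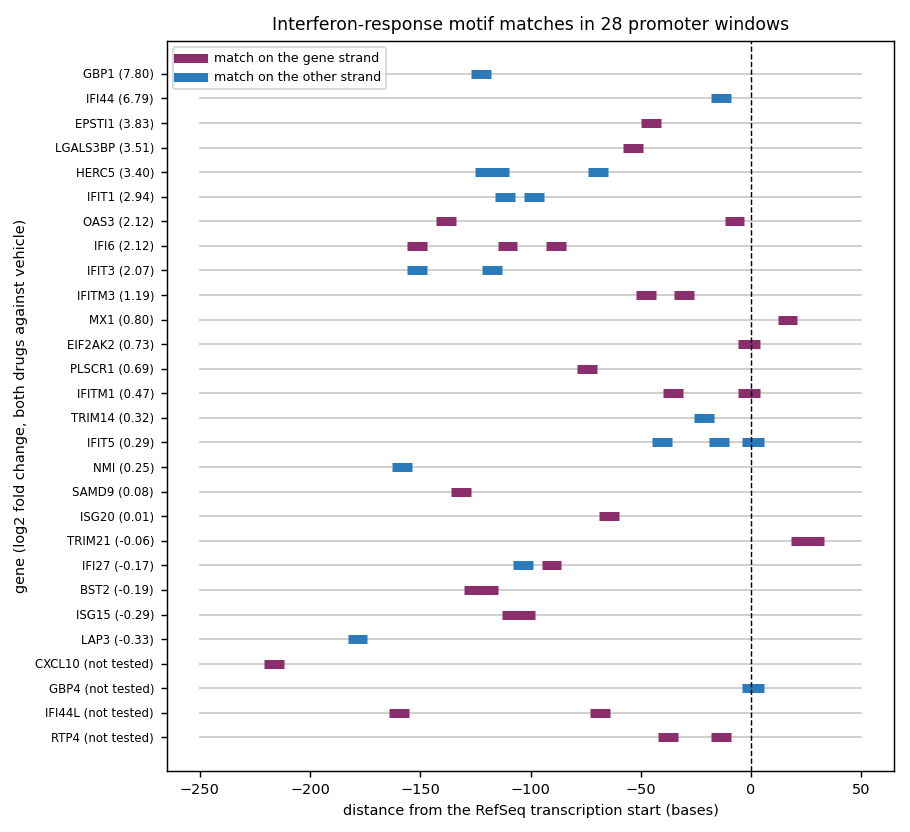
Position of each match to the response element core (bars, coloured by strand) in the 28 promoter windows that hold one, against the distance from the RefSeq transcription start in bases; the number after each gene is its log2 fold change with both drugs against vehicle, which for GBP1 and IFI44, without counts in vehicle, depends on the prior count. Of 45 matches 38 lie before the start, and genes that rose and genes that fell both hold matches.

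The plot of match positions orders the genes by their change with both drugs. Of the 45 matches 32 lay within 150 bases before the start, 4 spanned it and 3 lay after it. 28 matches were on the gene's strand and 17 on the other.

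Levels are in CPM, the counts of a gene per 1000000 counts in its library. The library totals ranged from 35947840 to 36337051 counts. A gene was tested when it passed edgeR's filter on low counts over the 4 groups, and called when the adjusted p of edgeR's quasi-likelihood test was under 0.05 (Benjamini-Hochberg over 17869 genes). Of the 52 genes 47 were tested. The other 5 were RTP4, GBP2, GBP4, IFI44L and CXCL10, each at 0.166 CPM or less in every library. CXCL10, a chemokine that draws T cells, had counts in 1 inhibitor library and 1 combination library. The B-cell markers MS4A1 (841 to 1508 CPM) and CD79A (600.2 to 795 CPM) were abundant in every library. Mitochondrial genes took 9.59% to 15.3% of the counts; 5-azacitidine replicate 1 (13.8%) and combination replicate 3 (15.3%) stood above the rest of their groups.

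In the vehicle group the 52 genes differed widely in level. Compared per kilobase of exon, BST2, which tethers budding virus to the cell surface, was highest in vehicle at 166 ± 0.702 CPM per kilobase (SD, n = 3), followed by ISG15, a ubiquitin-like modifier, at 66.6 ± 5.94 and the peptidase gene LAP3 at 57.1 ± 3.26. The libraries of these 3 genes did not overlap. UBE2L6 (35.1 ± 1.62) and ISG20 (32.4 ± 1.67), further down the order, had overlapping libraries. By CPM without length, ADAR, ISG20, LAP3, BST2, SHISA5 and OAS2 together made up 65.8% of the summed level of the 52 genes in vehicle and 51.5% with both drugs. The other 46 genes summed to 673 ± 7.61 CPM in vehicle, 763 ± 19.1 under 5-azacitidine, 1003 ± 11.1 under the inhibitor and 1154 ± 14.9 under both (SD, n = 3 each). The 4 groups did not overlap in that sum. The 6 abundant genes summed to 1292 ± 6.14 CPM in vehicle and 1224 ± 12 under both, lower without overlap, and all 52 genes to 1965 ± 11.6 and 2378 ± 25.5. In a bulk sample, a larger share of responding cells and more RNA per cell cannot be told apart.

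With the inhibitor alone, most of the tested interferon-stimulated genes rose. They included SP140, a nuclear body reader of chromatin (8.82-fold), HERC5, the ligase that attaches ISG15 to proteins (10.5-fold), OASL (5.92-fold), IFIT3 (3.64-fold) and OAS3 (3.40-fold). Of 47 tested genes 29 rose and 4 fell, where 26.4% of all tested genes were called higher and 24.9% lower. Their median log2 fold change was 0.68, against 0.00 for all genes. Of the 47 genes 10 passed the filter only because of treated libraries (HERC5, HERC6, IFIT1, RSAD2, CMPK2, GBP1, IFI44, XAF1, EPSTI1 and LGALS3BP). A gene that enters this way was selected for its level in treated libraries, which favours a call as higher. Of these genes LGALS3BP was not called with the inhibitor. Among the 37 that pass on the vehicle libraries alone, 20 rose and 4 fell, with a median of 0.43, where 22.9% of such genes were called higher and 30.1% lower.

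With 5-azacitidine alone, fewer members were called and their median change was smaller. SP140 (1.97-fold), IFITM2 (1.84-fold), OASL (2.00-fold) and OAS3 (1.42-fold) were among the 14 of 47 that rose, where 4.31% of all genes were called higher. No member was called lower by edgeR, where 4.75% of all genes were; 1 member (MX1) was lower at an unadjusted p under 0.05, and DESeq2 and limma voom also called none. The median was 0.21, or 0.18 with genes at 0 in vehicle set to their bound. Of the 37 genes that pass on vehicle alone 12 rose and none fell, where 4.57% of such genes were called higher and 5.75% lower. Of the 33 inhibitor calls 31 remained when any 1 of the 12 libraries was left out (all but IFI35 and OAS1). Of the 14 calls with 5-azacitidine 7 (IFITM2, NMI, OAS3, OASL, SP100, SP110 and SP140) did so, and the number called fell to 10 without vehicle replicate 3.

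With both drugs, 37 of 47 rose and 3 fell, where 29.6% of all genes were called higher and 27.5% lower, with a median of 0.77. Among the 37 that pass on vehicle alone, 27 rose and 3 fell, where 25.8% were called higher and 33.1% lower. The combination exceeded the inhibitor alone in 10 of 47 by edgeR, where 4.51% of all genes were called higher. It was called lower in 0 of 47, also by DESeq2 and limma voom and at an unadjusted p under 0.05, where 2.83% of all genes were called lower. The 10 were LGALS3BP, MX2, IFI6, IFI35, OAS1, OAS2, OAS3, STAT2, IFITM2 and SP140. The count was 6 without inhibitor replicate 1, and 6 of the 10 remained in every fit that left out 1 library (IFI35, IFI6, LGALS3BP, OAS1, OAS3 and STAT2). Against 5-azacitidine alone, 31 were higher and 6 lower with both drugs (3 lower without combination replicate 1), where 28.7% and 25.1% of all genes were called. The 31 include HERC5, HERC6, IFIT1, RSAD2, CMPK2, GBP1, IFI44, EPSTI1 and LGALS3BP, which passed the filter only because of treated libraries. LGALS3BP is also among the 10 above the inhibitor. The counts against each single drug were not remade for genes that pass on vehicle alone. The 3 comparisons with vehicle share the vehicle libraries, and those with both drugs share the combination libraries.

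**Figure D2:**
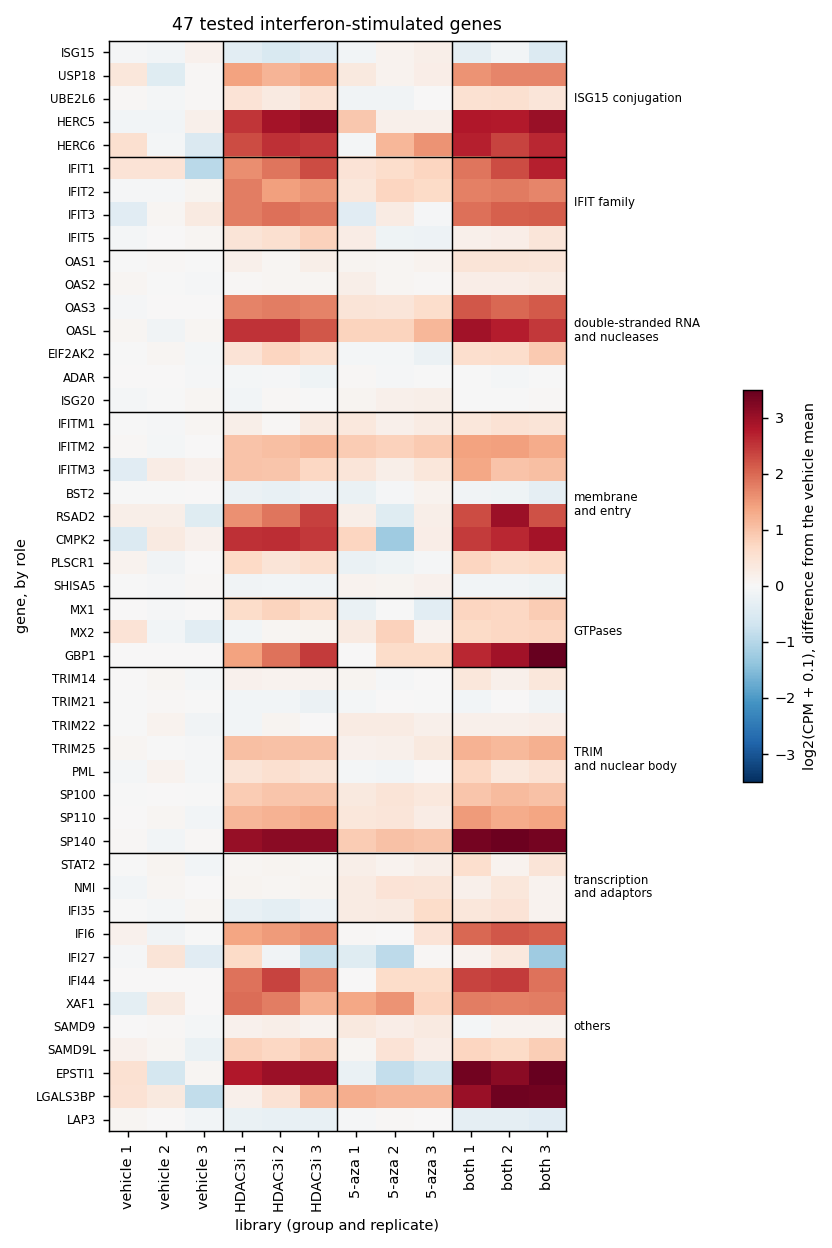
Difference of each library (columns, 3 per group) from the vehicle mean in log2(CPM + 0.1) for the 47 tested genes (rows, by role), from blue (lower) to red (higher). The 29 genes that rose with the inhibitor are pale to dark red in its columns, and most of them are paler in the columns of 5-azacitidine alone.

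The heat map of all libraries shows the calls as they fell into patterns. In the 3 comparisons with vehicle, the most common pattern held 19 genes that rose with the inhibitor and with both drugs but were not called with 5-azacitidine. Another 9 genes rose in all 3 comparisons (IFIT2, IFITM2, OAS3, OASL, SP100, SP110, SP140, TRIM25 and XAF1). LGALS3BP, NMI and TRIM22 rose with 5-azacitidine and with both, SAMD9 with 5-azacitidine alone and IFIT5 with the inhibitor alone. IFITM1, MX2, OAS2, STAT2 and TRIM14 were called only in the comparison of both drugs with vehicle among these 3. ADAR, IFI27, ISG20, SHISA5 and TRIM21 were called in none of the 3. Of all tested genes 26.4% were called higher with the inhibitor, 4.31% with 5-azacitidine and 29.6% with both. The share of all genes with each pattern was not counted. In the most common pattern, CMPK2, EPSTI1, GBP1, HERC5, HERC6, IFI44, IFIT1 and RSAD2 passed the filter only because of treated libraries. A gene called in one comparison and not in another is not thereby shown to differ between them. The combination was tested against each drug directly, and the difference between the inhibitor and 5-azacitidine was not tested.

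The members grouped here for conjugating or removing ISG15, which are HERC5, HERC6, USP18 and UBE2L6, all rose with the inhibitor and with both drugs. HERC5 read 0.166, 0.166 and 0.222 CPM in the vehicle libraries, 1.49, 2.04 and 2.30 under the inhibitor, 0.441, 0.222 and 0.223 under 5-azacitidine and 1.88, 1.84 and 2.18 under both. Every library with the inhibitor stood above every library without it (log2 fold change with the inhibitor 3.37 ± 0.33 SE, adjusted p = 2.1e-09). HERC6, its neighbour on chromosome 4 and a related ligase, read 0.221, 0.111 and 0.0554 CPM in vehicle, 0.968, 1.19 and 1.11 under the inhibitor, 0.110, 0.388 and 0.556 under 5-azacitidine and 1.36, 1.02 and 1.27 under both. It showed the same separation (3.04 ± 0.45, adjusted p = 2.3e-06), and its 5-azacitidine value of 1.41 ± 0.53 missed the threshold (adjusted p = 0.096, or 0.0206 without the 2 libraries of highest mitochondrial share). USP18, the protease that removes ISG15 and restrains the receptor, rose with the inhibitor by 1.34 ± 0.20 and with both by 1.71 ± 0.19 on the log2 scale. UBE2L6, the E2 enzyme of the same pathway, rose by 0.43 ± 0.06 and 0.51 ± 0.06.

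ISG15 itself fell, although it is the modifier these enzymes use. Its values were 55.6, 54.1 and 63.6 CPM in vehicle, 44.7, 40.0 and 43.8 under the inhibitor, 53.6, 63.1 and 66.8 under 5-azacitidine and 46.2, 54.0 and 41.0 under both. The inhibitor libraries all lay below the vehicle libraries (log2 fold change −0.44 ± 0.09 SE, adjusted p = 0.00011), and combination replicate 2 lay just under the lowest vehicle library (−0.29 ± 0.08, adjusted p = 0.0045, or 0.055 without vehicle replicate 3). The gene spans 1001138 to 1014540 on chromosome 1 (GRCh38, plus strand) in the annotation used for counting, and 4.15% of its exon length is shared with a gene on the other strand.

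All 4 IFIT genes, which bind foreign RNA ends and block their translation, rose with the inhibitor. IFIT3 read 1.99, 2.77 and 3.27 CPM in vehicle, 9.35, 10.2 and 9.63 under the inhibitor, 1.99, 3.22 and 2.53 under 5-azacitidine and 10.4, 11.6 and 11.7 under both. Vehicle and 5-azacitidine libraries overlapped, and the libraries with the inhibitor were all higher (1.86 ± 0.15 SE with the inhibitor, adjusted p = 4.7e-11). IFIT2 read 1.38, 1.38 and 1.55 CPM in vehicle, 5.20, 4.03 and 4.48 under the inhibitor, 1.93, 2.47 and 2.34 under 5-azacitidine and 5.09, 5.28 and 4.92 under both. Unlike IFIT3, it was called with 5-azacitidine (0.63 ± 0.17, adjusted p = 0.017), a call lost without vehicle replicate 1 or 2 or without 5-azacitidine replicate 2 or 3 (adjusted p from 0.0502 to 0.0784). IFIT1 rose from 12 counts over the vehicle group to 70 with the inhibitor (2.5 ± 0.53), and IFIT5 rose by 0.63 ± 0.18 with the inhibitor but read 0.29 ± 0.18 with both (adjusted p = 0.18). The 4 genes form a cluster between 89283694 and 89421605 on chromosome 10.

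The oligoadenylate synthetase family senses double-stranded RNA, and its members moved by very different amounts. OAS3, which activates the ribonuclease RNase L on long RNA, read 25.7, 26.6 and 26.6 CPM in vehicle, 88.3, 91.0 and 88.5 under the inhibitor, 36.2, 35.3 and 40.4 under 5-azacitidine and 120, 107 and 116 under both. The 4 groups did not overlap, and each step was called: 1.76 ± 0.06 with the inhibitor (adjusted p = 1.2e-18), 0.50 ± 0.06 with 5-azacitidine (adjusted p = 3.4e-06) and 0.36 ± 0.06 for both against the inhibitor (adjusted p = 0.00013). OASL, a family member without synthetase activity, read 0.773, 0.665 and 0.776 CPM in vehicle, 4.70, 4.69 and 3.71 under the inhibitor, 1.32, 1.33 and 1.78 under 5-azacitidine and 6.28, 5.48 and 4.53 under both. Its inhibitor and combination libraries overlapped (0.32 ± 0.15, adjusted p = 0.21), and the groups were otherwise apart.

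OAS1 and OAS2 flank OAS3 on chromosome 12, in the order OAS1, OAS3 and OAS2 between 112905856 and 113011723. OAS1, at 65.8 ± 1.26 CPM in vehicle, rose by 0.15 ± 0.05 with the inhibitor (adjusted p = 0.022) and by 0.45 ± 0.05 with both. The first of these calls was lost without a filter on low counts and without vehicle replicate 1 or 2 or inhibitor replicate 1 or 3 (adjusted p from 0.0514 to 0.102). OAS2, at 108 ± 4.02 CPM, was called against vehicle only with both drugs (0.25 ± 0.06). EIF2AK2, the kinase PKR that stops translation on double-stranded RNA, rose by 0.61 ± 0.11 with the inhibitor and 0.73 ± 0.11 with both. The RNA-editing enzyme ADAR (382 ± 8.56 CPM in vehicle) and the exonuclease ISG20 (233 ± 12 CPM) were not called against vehicle, with values from −0.09 to 0.15.

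Among membrane proteins, IFITM2 rose with each drug. It read 6.52, 6.06 and 6.35 CPM in vehicle, 12.7, 13.3 and 14.2 under the inhibitor, 11.7, 11.1 and 12 under 5-azacitidine and 17.0, 17.2 and 15.7 under both. The 4 groups did not overlap, with log2 fold changes of 1.08 ± 0.09 SE for the inhibitor, 0.88 ± 0.09 for 5-azacitidine and 1.40 ± 0.09 for both. Its neighbours, which likewise hinder virus fusion, were IFITM1 (0.47 ± 0.09 with both) and IFITM3 (0.94 ± 0.22 with the inhibitor, 1.19 ± 0.22 with both). IFITM1, IFITM2 and IFITM3 share 40.6%, 11.5% and 28% of their exon length with other genes and had split counts of reads with several mapping places in 6 to 8 libraries, so the division of reads between them is uncertain.

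CMPK2, a mitochondrial nucleotide kinase, and RSAD2, which encodes the antiviral enzyme viperin, are neighbours on opposite strands of chromosome 2. CMPK2 read 0.166, 0.360 and 0.305 CPM in vehicle, 2.05, 2.1 and 1.94 under the inhibitor, 0.524, 0.0554 and 0.334 under 5-azacitidine and 1.91, 2.20 and 2.68 under both. All libraries with the inhibitor were above all others (2.85 ± 0.36 SE, adjusted p = 1.8e-07). RSAD2 rose from 4 counts over the vehicle group to 47 with the inhibitor and 74 with both, and had 4 with 5-azacitidine. CMPK2 shares 7.995% of its exon length with RSAD2, and RSAD2 6.20% with CMPK2, and without strand information reads of one cannot be separated from those of the other there. PLSCR1, a lipid scramblase, rose by 0.58 ± 0.11 with the inhibitor and 0.69 ± 0.11 with both, and SHISA5 was called only as lower in the combination than with 5-azacitidine (−0.23 ± 0.05). SHISA5 gained a call as lower with the inhibitor by limma voom (adjusted p = 0.0433) and in a fit of the compared groups alone (0.0474). It also did so with a block on the library number (0.0492), without vehicle replicate 2 (0.0293) and without any single combination library (0.0354 to 0.0497).

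BST2 and LAP3, both abundant, fell with the inhibitor. BST2 read 183, 183 and 184 CPM in vehicle, 160, 154 and 161 under the inhibitor, 156, 180 and 200 under 5-azacitidine and 167, 166 and 147 under both. Vehicle libraries were tight and lay above all inhibitor and combination libraries (−0.21 ± 0.06 with the inhibitor, adjusted p = 0.0042), while 5-azacitidine libraries spread across both. Its fall with both drugs (−0.19 ± 0.06, adjusted p = 0.0078) lost its call without combination replicate 3 (adjusted p = 0.0606) and with the stricter filter (0.102). LAP3 read 226, 218 and 202 CPM in vehicle, 184, 179 and 178 under the inhibitor, 208, 221 and 216 under 5-azacitidine and 174, 174 and 164 under both. The libraries with the inhibitor were all below those without it (−0.26 ± 0.05 with the inhibitor, adjusted p = 9.1e-05).

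**Figure D3:**
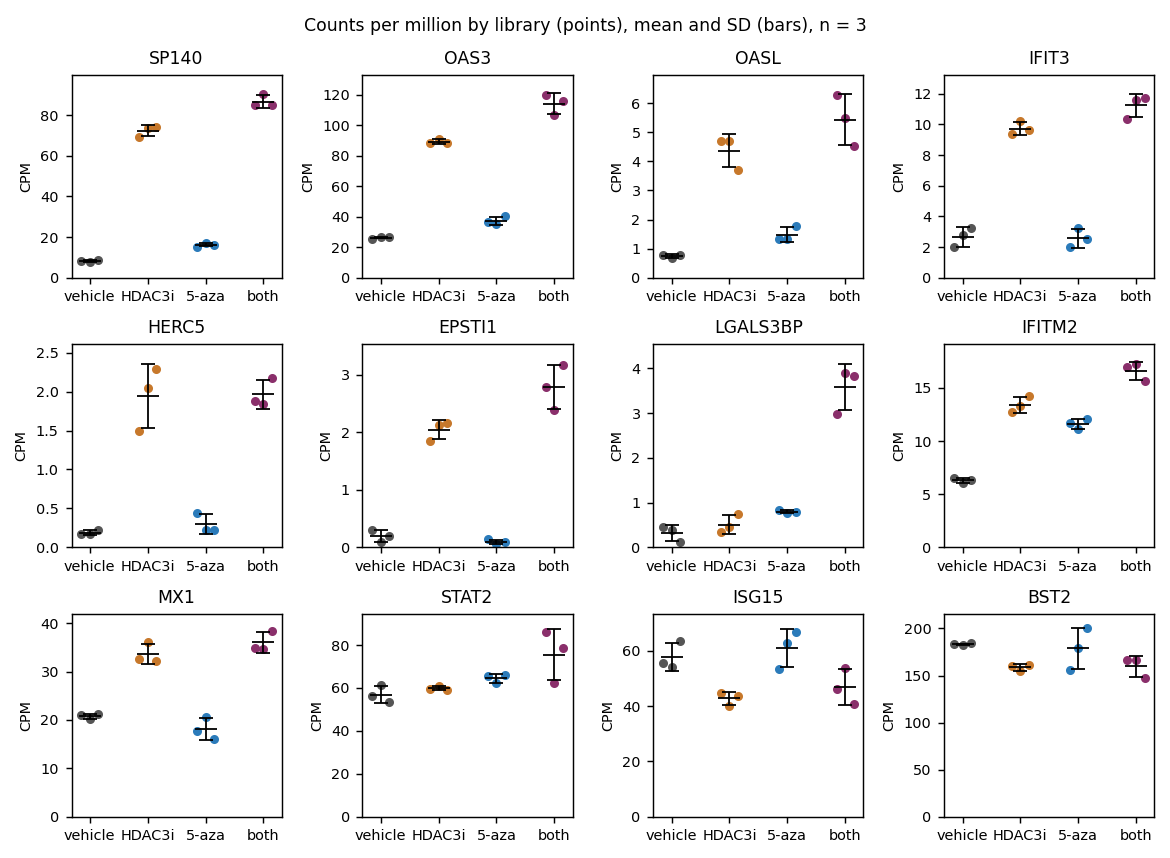
CPM in each library (points) with the group mean and SD (bars, n = 3) for 12 members, each on its own linear axis from 0. SP140, OAS3 and OASL rise with each drug, LGALS3BP is highest with both drugs at 2.99 to 3.91 CPM, and ISG15 and BST2 are lower with the inhibitor.

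The plot of CPM by library sets genes of these patterns side by side. The GTPases MX1 and MX2 trap viral particles in the cytoplasm and at the nuclear pore. MX1 read 21.0, 20.2 and 21.2 CPM in vehicle, 32.6, 36 and 32.1 under the inhibitor, 17.7, 20.7 and 16.1 under 5-azacitidine and 35.0, 34.7 and 38.5 under both. It rose with the inhibitor (0.69 ± 0.08 SE, adjusted p = 8.1e-08), and its 5-azacitidine libraries overlapped those of vehicle (−0.20 ± 0.08, adjusted p = 0.15). MX2 read 3.67, 2.41 and 1.97 CPM in vehicle, 2.43, 2.73 and 2.79 under the inhibitor, 3.26, 4.63 and 2.81 under 5-azacitidine and 4.21, 4.32 and 4.47 under both. Only the combination libraries stood apart from vehicle (0.70 ± 0.19, adjusted p = 0.0022), and their difference from the inhibitor group (0.72 ± 0.19, adjusted p = 0.017) lost its call without any of 3 libraries left out singly (0.0515 to 0.0831), without the 2 libraries of highest mitochondrial share (0.0547) and with a block on the library number (0.0782). GBP1, a guanylate-binding protein of the interferon gamma response, had no counts in vehicle or in 5-azacitidine replicate 1. Its libraries summed to 32 counts with the inhibitor, 83 with both drugs and 4 with 5-azacitidine. Against a limit of 3 counts per library it was at least 3.55-fold higher with the inhibitor and at least 9.20-fold higher with both; such limits cover counting error only, since PCR reads are not independent molecules.

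The nuclear body genes SP100, SP110 and SP140 lie together on chromosome 2 between 230165186 and 230545606, and all rose with each drug. SP140 read 8.45, 7.64 and 8.51 CPM in vehicle, 69.0, 73.7 and 74.3 under the inhibitor, 15.3, 16.9 and 16.3 under 5-azacitidine and 85.0, 90.1 and 84.8 under both. The 4 groups were far apart, with log2 fold changes of 3.14 ± 0.07 SE (adjusted p = 2.3e-22), 0.97 ± 0.08 (adjusted p = 2e-09) and 3.41 ± 0.07 (adjusted p = 1.8e-23) in that order. SP110 read 20.01, 20.7 and 18.5 CPM in vehicle, 44.3, 45.5 and 48.2 under the inhibitor, 25.9, 26.3 and 23.7 under 5-azacitidine and 55.0, 48.5 and 51.9 under both. Its inhibitor and combination groups did not overlap but their difference missed the threshold (0.18 ± 0.07, adjusted p = 0.093). SP110 and SP140 lie on opposite strands, their RefSeq promoter windows overlap, and neither window held a match to the response element core or to TTCNNNGAA.

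SP100 rose by 0.94 ± 0.06 with the inhibitor, 0.39 ± 0.06 with 5-azacitidine and 1.05 ± 0.06 with both. PML, the organiser of the nuclear bodies that bear its name, rose by 0.49 ± 0.07 with the inhibitor and 0.54 ± 0.07 with both, and read −0.06 ± 0.07 with 5-azacitidine. SP110 shares 19.4% of its exon length with genes on the other strand, SP140 among them. Of the TRIM ubiquitin ligases, TRIM25, which acts on the RNA sensor RIG-I, rose by 1.03 ± 0.06, 0.22 ± 0.06 and 1.20 ± 0.06 in the 3 comparisons with vehicle. TRIM22 rose with 5-azacitidine (0.25 ± 0.07) and with both (0.20 ± 0.07). The 5-azacitidine calls of TRIM22 and TRIM25 were lost without single vehicle or 5-azacitidine libraries (adjusted p from 0.0658 to 0.123 for TRIM22 and from 0.0757 to 0.119 for TRIM25), and that of TRIM22 also without the 2 libraries of highest mitochondrial share (0.078). The TRIM22 call with both drugs was lost without vehicle replicate 3 (0.107) or combination replicate 3 (0.0594). TRIM14 rose with both drugs (0.32 ± 0.06) and gained a call with the inhibitor without the 2 libraries of highest mitochondrial share (0.14, adjusted p = 0.0481), and TRIM21, an intracellular antibody receptor, was not called.

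STAT2 is part of the factor that drives these genes. It read 56.2, 61.3 and 53.3 CPM in vehicle, 59.4, 60.9 and 59.2 under the inhibitor, 65.7, 62.1 and 65.9 under 5-azacitidine and 85.9, 62.4 and 78.4 under both. The combination libraries were spread, and the lowest of them lay within the 5-azacitidine range; the group was higher than vehicle (0.41 ± 0.07 SE, adjusted p = 3.2e-05) and the inhibitor (0.34 ± 0.07, adjusted p = 0.0042). IFI35, an adaptor that pairs with NMI, read 15.0, 14.6 and 15.9 CPM in vehicle, 12.6, 11.8 and 13.4 under the inhibitor, 18.3, 18.7 and 23.7 under 5-azacitidine and 19.8, 21.1 and 16.6 under both. It was the member called lower with one drug (−0.27 ± 0.10, adjusted p = 0.026) and higher with the other (0.41 ± 0.10, adjusted p = 0.0055). The fall was lost with the stricter filter and without vehicle replicate 3 or inhibitor replicate 1 or 2 (adjusted p from 0.0565 to 0.110), and the rise without 5-azacitidine replicate 3 (0.0698). NMI rose with 5-azacitidine (0.41 ± 0.07) and with both (0.25 ± 0.07), the second with a call lost without vehicle replicate 1 (0.0526) or combination replicate 2 (0.0809).

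LGALS3BP, a secreted glycoprotein that binds galectins, was highest when both drugs were present. It read 0.442, 0.388 and 0.111 CPM in vehicle, 0.332, 0.442 and 0.747 under the inhibitor, 0.828, 0.776 and 0.779 under 5-azacitidine and 2.99, 3.91 and 3.84 under both. The combination was 7.06-fold above the inhibitor (2.82 ± 0.28 SE on the log2 scale, adjusted p = 5.2e-07) and above 5-azacitidine by 2.18 ± 0.26 (adjusted p = 8e-08). The test of whether this exceeded the sum of the separate log2 effects did not pass (1.49 ± 0.49, adjusted p = 0.16). Its rise with 5-azacitidine alone (1.33 ± 0.36, adjusted p = 0.019) was lost without vehicle replicate 3 (0.122) or without the 2 libraries of highest mitochondrial share (0.0555).

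EPSTI1, first described as an epithelial gene induced by stromal cells, read 0.304, 0.0831 and 0.194 CPM in vehicle, 1.85, 2.13 and 2.16 under the inhibitor, 0.138, 0.0554 and 0.0835 under 5-azacitidine and 2.80, 2.39 and 3.18 under both. The libraries with the inhibitor were all above the rest (3.37 ± 0.32 SE, adjusted p = 1.2e-09; with both 3.83 ± 0.31, adjusted p = 3.4e-11), and the 5-azacitidine value of −1.05 ± 0.55 missed the threshold (adjusted p = 0.27). IFI6, a mitochondrial and endoplasmic reticulum protein that limits apoptosis, rose by 1.5 ± 0.11 with the inhibitor, by 2.12 ± 0.11 with both, and by 0.62 ± 0.10 between these groups (adjusted p = 0.00018). IFI6 shares 26.6% of its exon length with genes on the same and on the other strand. IFI44 had no counts in vehicle and 33 with the inhibitor, at least 3.66-fold higher, and 41 with both, at least 4.54-fold higher. XAF1, a pro-apoptotic antagonist of XIAP, had 3 counts over the vehicle group, 33 with the inhibitor (ratio 11, 95% exact interval 3.45 to 56.1) and 22 with 5-azacitidine (ratio 7.33, 2.20 to 38.3). XAF1 shares 49.9% of its exon length with genes on the other strand, and its 5-azacitidine call (adjusted p = 0.025) was lost without any of 4 libraries left out singly (0.0658 to 0.131), without the 2 libraries of highest mitochondrial share (0.0697) and in a fit of the compared groups alone (0.0639).

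The neighbours SAMD9 and SAMD9L, which restrict poxviruses and protein synthesis, differed in their calls. SAMD9L rose with the inhibitor (0.80 ± 0.11) and with both (0.77 ± 0.11), and SAMD9 rose only with 5-azacitidine among the comparisons with vehicle (0.30 ± 0.08, adjusted p = 0.0104). The SAMD9 call was lost without vehicle replicate 3 (0.0526) or 5-azacitidine replicate 1 (0.0552). Without the 2 libraries of highest mitochondrial share SAMD9 was also called with the inhibitor (0.17, adjusted p = 0.0444). IFI27, among the strongest interferon-induced genes in blood, stayed between 0.110 and 0.692 CPM in the 12 libraries and was not called.

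**Figure D4:**
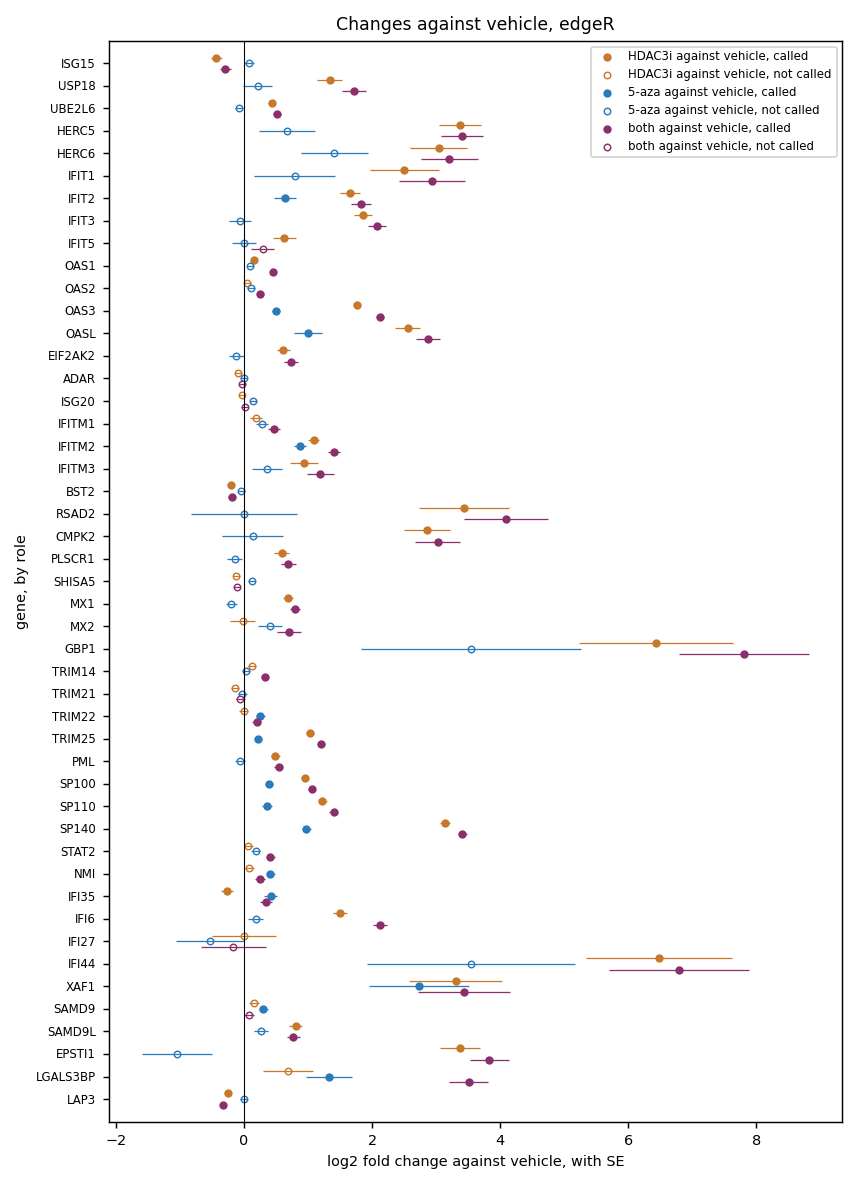
Log2 fold change against vehicle with its SE (edgeR) for the 47 tested genes in the 3 comparisons, filled where called. Inhibitor and combination values lie near each other for most genes, and 5-azacitidine values are nearer to 0; the values of GBP1 and IFI44, without counts in vehicle, depend on the prior count.

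The plot of fold changes sets the comparisons with vehicle side by side for each gene. XAF1, for example, read 3.30 with the inhibitor, 2.73 with 5-azacitidine and 3.43 with both on the log2 scale, while EPSTI1 read 3.37, −1.05 and 3.83. Set beside the promoter windows, 13 of 24 tested genes with a match rose with the inhibitor and 3 fell, against 11 and 1 of 15 without a match and 5 and 0 of 8 without a window in the table; of all tested genes 26.4% rose and 24.9% fell. Whether genes with and without a match differ was not tested. The windows of BST2, ISG15 and LAP3, which fell, all held at least 1 match.

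The interaction asks whether the 2 drugs add up on the log2 scale. It is the 5-azacitidine effect in the presence of the inhibitor minus that without it. No member was called above the sum by edgeR, DESeq2 or limma voom, and 5 were above it at an unadjusted p under 0.05 (OAS1, MX1, IFI6, EPSTI1 and LGALS3BP). By edgeR 2 were called below it, 5 without combination replicate 2. Of all genes 0.263% were called above and 0.453% below. SP140 rose by 0.97 with 5-azacitidine alone and by 0.27 on top of the inhibitor (the latter call was lost without inhibitor replicate 1, adjusted p = 0.0507), a difference of −0.70 ± 0.10 SE (adjusted p = 0.00044). This call held in the 21 alternatives that gave a value for the interaction. IFITM2 rose by 0.88 alone and 0.32 on top of the inhibitor (−0.56 ± 0.12, adjusted p = 0.029), and its call was lost without any of 10 libraries left out singly (adjusted p from 0.0554 to 0.114) and without the 2 libraries of highest mitochondrial share (0.0935). DESeq2 called 4 members below the sum. The median interaction over the 47 genes was −0.00, against 0.01 for all genes.

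The upstream genes of the pathway were taken as lists of their own. Of 21 interferon genes 18, including all 13 interferon alpha genes, had no counts in any of the 12 libraries, and none reached the test. IFNB1 and IFNW1 had 4 counts each, found only in combination libraries. IFNG had 51 counts in all, of which 15 were in vehicle, 16 with 5-azacitidine, and 10 each with the inhibitor and with both. A library without counts allows up to 3 counts.

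Receptor genes moved little. IFNGR1, the binding chain of the interferon gamma receptor, read 44.5, 43.3 and 41.4 CPM in vehicle and 65.7, 62.0 and 60.2 with the inhibitor, without overlap (0.54 ± 0.06 SE). IFNAR2 (−0.30 ± 0.10, with an adjusted p of 0.0606 under the stricter filter) and IFNGR2 (−0.27 ± 0.06) fell, and the other 3 receptor genes were not called. JAK1 rose with the inhibitor (0.37 ± 0.05), and JAK2, TYK2, STAT3 and IRF9 were not called in that comparison. IRF9, the DNA-binding partner of STAT2, read 1.21, 1.19 and 1.41 CPM in vehicle and 0.637, 0.936 and 0.773 with both drugs, lower without overlap (−0.69 ± 0.27, adjusted p = 0.0275). The IRF9 call was lost without vehicle replicate 3 or combination replicate 1 or 3 (adjusted p from 0.0566 to 0.119), and without the 2 libraries of highest mitochondrial share (0.0673). With both drugs JAK1 (0.40 ± 0.05), JAK2 (0.25 ± 0.10, adjusted p = 0.0321) and STAT3 (0.24 ± 0.07, adjusted p = 0.00663) rose against vehicle. The JAK2 call was lost without any of 4 libraries left out singly (0.0643 to 0.124), without a filter on low counts (0.0621), with library totals alone as the scaling (0.0504) and with a block on the library number (0.0563), and the STAT3 call without combination replicate 3 (0.0803). With 5-azacitidine alone none of the 6 receptor genes was called by edgeR, nor were JAK1, JAK2, TYK2, STAT3 or IRF9.

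Of 11 genes for inhibitors of the signal 8 were tested, and with the inhibitor drug 3 rose and 4 fell, where 26.4% of all genes rose and 24.9% fell. SOCS1, which blocks JAK kinases, read 7.23, 8.42 and 9.98 CPM in vehicle, 22.1, 23.6 and 26.0 with the drug, 9.32, 11.4 and 11.2 with 5-azacitidine and 27.1, 24.4 and 27 with both. All libraries with the drug were above those without it (1.48 ± 0.10 SE with the drug). The phosphatase genes PTPN6 (0.71 ± 0.05) and PTPN1 (0.48 ± 0.05) also rose. PIAS4 (−0.36 ± 0.07), PTPN11 (−0.23 ± 0.06), PIAS1 (−0.18 ± 0.07) and PTPN2 (−0.14 ± 0.06) fell. The PIAS1 and PTPN2 calls were lost without any of 6 and any of 7 of the 12 libraries, left out singly (adjusted p from 0.052 to 0.112 and from 0.0604 to 0.161), and the PTPN2 call also without the 2 libraries of highest mitochondrial share (0.0703). Both were lost with DESeq2 and with the stricter filter.

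**Figure D5:**
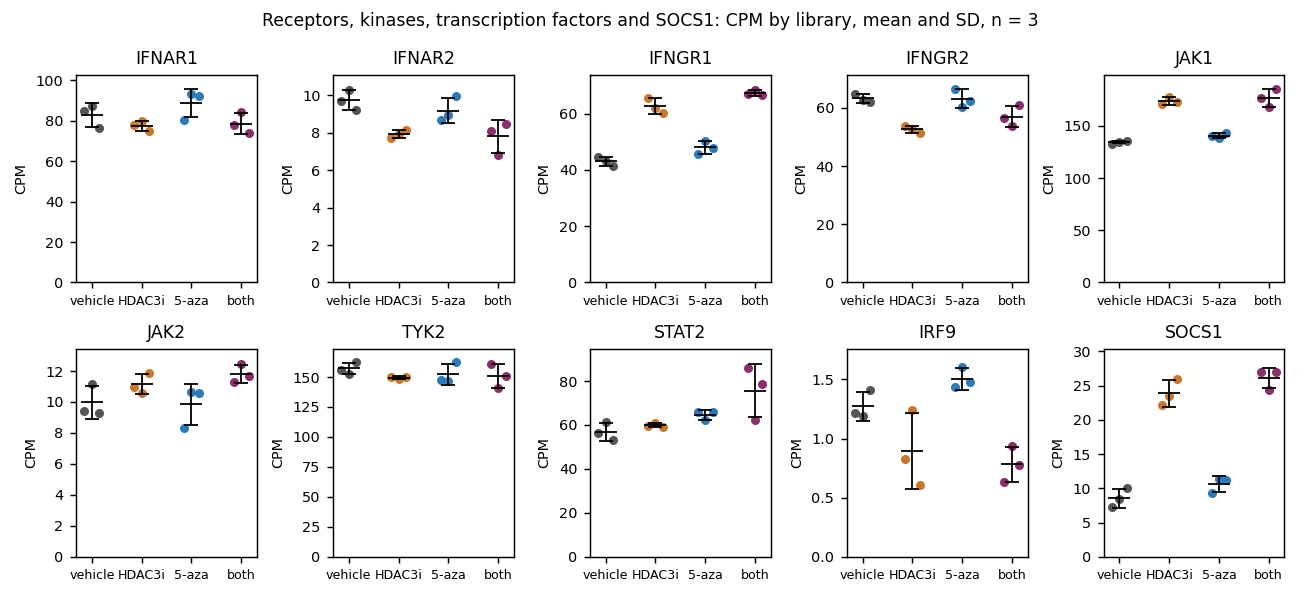
CPM in each library (points) with the group mean and SD (bars, n = 3) for receptor, kinase, transcription factor and SOCS1 genes, each on its own linear axis from 0. SOCS1 is at 22.1 to 27.1 CPM in the libraries with the inhibitor and at 7.23 to 11.4 in those without it, and IRF9 stays under 2 CPM throughout.

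The plot of pathway genes can be read beside 29 further interferon-stimulated genes outside the 52, of which 24 were tested. With the inhibitor 13 rose and 7 fell, where 26.4% and 24.9% of all genes did. With 5-azacitidine 6 rose and 1 fell (4.31% and 4.75% of all genes), and with both 16 rose and 5 fell (29.6% and 27.5%). These counts were not remade for genes that pass the filter on vehicle alone, and entry through treated libraries favours a call as higher. PARP9, which works with the ligase DTX3L in the DNA damage and interferon responses, read 1.16, 1.05 and 0.832 CPM in vehicle, 11.4, 12.5 and 12 under the inhibitor, 2.76, 2.38 and 2.78 under 5-azacitidine and 16.4, 15.9 and 16.3 under both. The groups were all apart, with changes of 3.55 ± 0.13 SE and 1.37 ± 0.16 for the single drugs. PARP9 was the 1 further gene called in the interaction (−0.93 ± 0.18, adjusted p = 0.0165), a call lost without vehicle replicate 3 (0.0794). DTX3L rose by 2.33 ± 0.13 and 0.55 ± 0.15, the second with a call lost without single libraries (adjusted p from 0.0747 to 0.0831), and RIGI, the RNA sensor, rose by 2.15 ± 0.40 with the inhibitor from 21 counts over the vehicle group. RIGI passed the filter only because of treated libraries, and it shares 42.6% of its exon length with a gene on the same strand. IRF7, a factor that amplifies interferon production, read −0.27 ± 0.10 with the inhibitor (adjusted p = 0.03, lost without vehicle replicate 3, 0.305, or inhibitor replicate 2, 0.165) and rose with 5-azacitidine (0.51 ± 0.10). The others that rose with the inhibitor were DDX60L (2.07 ± 0.36), TDRD7 (0.99 ± 0.12), PARP14 (0.98 ± 0.09), MOV10 (0.92 ± 0.06), TNFSF10, the death ligand TRAIL (0.68 ± 0.17), PARP12 (0.62 ± 0.09), DHX58, a relative of RIGI (0.41 ± 0.09), the immunoproteasome gene PSMB9 (0.40 ± 0.05), TRIM38 (0.32 ± 0.07) and TRIM5 (0.24 ± 0.07). PARP10 (−0.50 ± 0.06), PNPT1 (−0.41 ± 0.06), PHF11 (−0.37 ± 0.08), APOL6 (−0.28 ± 0.06), HELZ2 (−0.28 ± 0.10) and ZC3HAV1 (−0.22 ± 0.06) fell. The HELZ2 call was lost with the stricter filter (0.0749) and without vehicle replicate 3 (0.0923) or inhibitor replicate 3 (0.0622).

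Markers of other blood cells changed in the same comparisons. Of 8 markers of T and NK cells 5 were tested and all 5 rose with the inhibitor and with both drugs. Of all tested genes 26.4% and 29.6% were called higher in these comparisons. CD3D and CD3G, with 2 and 10 counts over the vehicle group, passed the filter only because of treated libraries. The 8 summed to between 87.6 and 96.1 CPM in vehicle, between 244 and 252 with the inhibitor, between 107 and 116 with 5-azacitidine and between 241 and 256 with both. Most of this was TRAC, at 84.9 to 94.1 CPM in vehicle. CD7 was at 0 in all 12 libraries, CD2 had 4 counts and GNLY 2 in total. The 6 markers of monocytes and granulocytes summed to 0.859 to 2.21 CPM in vehicle and 3.10 to 3.74 under the inhibitor. They summed to 1.47 to 1.79 under 5-azacitidine and 4.73 to 4.90 under both, with S100A8 at 0. Of these markers 4 were tested, and LYZ and CSF1R rose. LYZ and CSF1R had 2 counts each over the vehicle group and passed the filter only because of treated libraries. The 6 markers of plasmacytoid dendritic cells, a main source of interferon, summed to 459 to 498 CPM in vehicle, 832 to 852 under the inhibitor, 338 to 376 under 5-azacitidine and 701 to 740 under both. That sum was carried by TCL1A, which B cells also express, while GZMB and NRP1 had 2 counts each. Of these markers TCL1A, IL3RA and LILRA4 were tested, and all 3 rose with the inhibitor and with both drugs. IL3RA had 86 counts over the vehicle group, 149 with the inhibitor and 158 with both. LILRA4 had 0, 33 and 69 in the same order and passed the filter only because of treated libraries. Markers of B cells moved as well. With the inhibitor MS4A1 (0.73 ± 0.05 SE), EBF1 (0.31 ± 0.09), CD79B (0.30 ± 0.06), CD79A (0.22 ± 0.06) and PAX5 (0.19 ± 0.06) rose, and the germinal centre markers MME (−0.27 ± 0.07) and BCL6 (−0.18 ± 0.05) fell. With both drugs MS4A1 (0.73 ± 0.05), CD79B (0.37 ± 0.06), CD79A (0.26 ± 0.06) and CD22 (0.19 ± 0.06) rose and MME (−0.36 ± 0.07) fell. The part of these markers in the results above was not tested.

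Without the 2 libraries of highest mitochondrial share, 31 members rose and 4 fell with the inhibitor, 12 rose with 5-azacitidine and 37 rose and 3 fell with both. Over the 12 libraries, the genes outside the 52 whose log2 CPM followed the median pattern of the members most closely were SPOCK2 (Pearson r = 0.999), PTGS1 (0.997), DHRS9 (0.996), PRCP (0.995) and ASB2 (0.994). Among the members the closest were OAS3 (0.993) and SP110 (0.991), each set against the median of the others, and LAP3 was the most opposed (−0.95). These values describe a profile that is set mainly by 4 group levels, and the points of a group share its treatment.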

How the data were processed

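Poly(A) RNA from 12 libraries, 3 for each of 4 groups, was sequenced and counted by the authors. The deposited values are estimated counts per gene: per the file headers, featureCounts 2.1.1 was run on the Ensembl GRCh38 release 114 annotation with fractional counting of reads that map to several places, without a strand setting and without counting read pairs as 1. The submitters' processing notes name STAR 2.7.11b, Subread 2.1.2, cutadapt 5.1, FastQC 12.1 and bcl2fastq 2.17.1.14. The command recorded in the file headers names 16 libraries. Deposited values were given for 12 of them, and all 12 were analysed. Of all values 96.9% were whole within 1e-06, and values of 2 (36544) outnumbered values of 1 (20668), a pattern that counting both mates of a pair would give; counting error would then be larger than the counts alone give. Unstranded counting leaves reads of overlapping genes inseparable: 27 of the 52 genes share exon length with a gene on the opposite strand, 8 of them also with one on the same strand.

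Counts were rounded and tested with edgeR 4.0.16 in R 4.3.3 (filterByExpr on the 4 groups, TMM scaling, quasi-likelihood F-test, all 12 libraries in 1 fit, no covariates, Benjamini-Hochberg over 17869 genes); those genes held 99.9% of the counts, and the common biological coefficient of variation was 6.05%. The stricter filter asked for 5 CPM in at least 3 libraries. SE is the log2 fold change divided by the square root of F. DESeq2 1.42.0, limma 3.58.1 (voom), other scalings, other filters, a fit of the compared groups alone, replicate blocks and leaving out libraries were alternatives. The edgeR tests were also run on simulated data. They recovered 20% to 51% of simulated 1.25-fold changes and 77.6% to 94% of 2-fold changes, so a small change that was not called is not shown to be absent. False calls were 14 of 141 for the interaction, and from 5 of 150 to 11 of 158 in the other comparisons. Low counts with a ratio were given 95% exact intervals, and a group without counts a limit of 3 counts per library. Python 3.11.15 with pandas 2.3.3 and scipy 1.17.1 computed levels, promoter matches (43 of 52 genes matched by symbol) and likeness.

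All 52 genes could be named, by role. Values in every library were given for genes called in the interaction, for the 2 called genes of largest change with both drugs in each role group that reached 1 CPM, and for genes that fell with the inhibitor; the others shown by library were chosen after their values were seen. Genes of the pathway lists were named where called with the inhibitor, fewer of them in the other comparisons, and some items of the lists are not reported here. Promoters were shown for the 6 called genes of largest change with a match and 2 without. The members, lists and tests were chosen with earlier results of these data known.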

Additional observations from a re-analysis of the deposited data

Results flagged for a closer look

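For 2 genes the effect of 5-azacitidine on the log2 scale differed between cells with and without the inhibitor, by edgeR's test of the difference itself. SP140 rose by 0.97 without the inhibitor and by 0.27 with it, a difference of −0.70 (adjusted p = 0.00044), and was higher in 3 of 3 libraries of the treated group in each setting. IFITM2 rose by 0.88 and 0.32, a difference of −0.56 (adjusted p = 0.029), likewise in 3 of 3 libraries each. The IFITM2 call was lost without any of 10 libraries left out singly (adjusted p from 0.0554 to 0.114 by edgeR). The SP140 call remained when any single library was left out.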

How the results depend on the processing

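Counts of called genes were recomputed under 22 alternatives (21 for the interaction, which a fit of the compared groups alone cannot give), and no result changed direction. The stricter filter tested 31 of the 52 genes and called 19 higher with the inhibitor, 23 higher with both drugs, and 20 higher and 3 lower with both against 5-azacitidine. DESeq2 called 4 genes below the sum in the interaction, and 1 was called without the 2 libraries of highest mitochondrial share. Leaving out each library in turn gave 28 to 30 higher and 3 to 6 lower with the inhibitor, 10 to 16 higher with 5-azacitidine, 36 to 37 higher and 2 to 4 lower with both, and 6 to 13 higher for both against the inhibitor (6 without inhibitor replicate 1, 13 without combination replicate 2). Against 5-azacitidine it gave 30 to 33 higher and 3 to 7 lower (3 without combination replicate 1, 7 without combination replicate 2), and in the interaction 1 to 5 lower (5 without combination replicate 2). The cause of these shifts was not tested beyond the smaller number of genes that the stricter filter tests.

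Deviations from the group means of libraries with the same replicate number in their titles correlated by −0.059 to 0.066. Those of libraries with different numbers correlated by −0.065 to 0.061. The labels do not say whether the numbers pair the samples, and values this near 0 cannot settle it. With a replicate block on the number in the titles, 29 genes were higher and 4 lower with the inhibitor, 14 higher with 5-azacitidine, 37 higher and 3 lower with both, 11 higher for both against the inhibitor, 31 higher and 7 lower for both against 5-azacitidine, and 2 lower in the interaction. In the same order, a block on the number in the library names gave 29 and 5, 16, 37 and 3, 11, 30 and 5, and 2. Genes under 1 CPM rest on few counts, and their changes are the least precise.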
